A study of Mus musculus with 8 samples.

Results

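Transcripts of 9 genes that mark T cells, cytotoxic lymphocytes and B cells were followed across 4 mouse models of endometrial cancer by bulk RNA sequencing. The genes were taken by symbol from a count table of 24419 gene symbols, and all 9 were found there. They were the CD3 chains Cd3e, Cd3d and Cd3g, the coreceptors Cd4 and Cd8a, the cytotoxic granule gene Nkg7, and the B cell genes Cd79a, Cd79b and Ms4a1. Each model was represented by 2 libraries, replicates 1 and 2. All 4 models started from uterus organoids of CAG-Cas9-EGFP mice, which carried edits that include an sgRNA against Trp53, and grew in the uterus of female BALB/cA-nu nude mice aged 8 weeks. TPM organoids also overexpressed Myc cDNA. TPMCa organoids carried Pik3ca E545K cDNA on top of the TPM alterations, and TPMR1 organoids an sgRNA against Pik3r1 on top of them. TPK organoids had no Myc cDNA and received another cDNA instead. By the study's methods, tumors were collected some 2 months after the transplant, but the labels of the samples call the material tumor organoids from nude mice. Legends of the published heatmaps count as many mice as libraries in each model, although the labels do not tie libraries to mice.

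T cells recognize antigen through a receptor whose signal passes through the CD3 chains, and the coreceptors CD4 and CD8 bind MHC class II and class I molecules. B cells signal through CD79a and CD79b, which hold the membrane immunoglobulin, and carry CD20, the product of Ms4a1. Nude mice are athymic, so that few mature T cells form in them, while B cells and natural killer cells still develop. In a bulk library, fewer cells of a type and less RNA per cell cannot be told apart, and cells of the host and of the graft are read together.

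Libraries held from 15748396 to 26943611 counts, and a count of 3, taken as the lowest level that could be told from 0, equaled 0.116 to 0.198 CPM (the read count of a gene relative to all counts of its library, scaled between libraries by the TMM method). This limit covers counting error only. Epithelial marker genes summed to between 2938 and 5494 CPM in the TPM and TPK libraries but to between 6.44 and 73.3 CPM in the TPMCa and TPMR1 libraries. Fibroblast and endothelial markers were present in all 8, at 757 to 12598 CPM. Myc stood at 92.7 to 153 CPM in TPK and at 323 to 3074 CPM in the 6 libraries of the models given Myc cDNA. Both ends of that range were TPMCa libraries, with 3074 CPM in replicate 1 and 323 CPM in replicate 2. Pik3ca stood at 89.9 and 83.2 CPM in TPMCa and at 60.9 to 80.1 CPM in the other libraries. All 15 genes expressed by leukocytes in general, such as Ptprc (CD45), were read in all 8 libraries. They summed to 107 CPM in TPMR1 replicate 1 and to 1890 CPM in TPMCa replicate 2, the lowest and the highest library.

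On GRCm38 with the GENCODE M21 annotation, the CD3 genes lay side by side on chromosome 9, within a stretch of 40056 bp. Cd3g (chr9:44969572-44980431, minus strand) and Cd3d (chr9:44981786-44987339, plus strand) pointed away from each other with 1354 bp between them. Cd3e (chr9:44998740-45009627, minus strand) followed after a gap of 11400 bp and overlapped an annotated antisense gene. Cd4 (chr6:124864692-124888221, minus strand) and Cd8a (chr6:71373427-71379173, plus strand) shared a chromosome at a distance. Nkg7 (chr7:43437073-43438249, plus strand) and Cd79a (chr7:24897381-24902197, plus strand) did so too. Cd79b (chr11:106311341-106314762, minus strand) and Ms4a1 (chr19:11249675-11266241, minus strand) completed the set, and Ms4a1 also overlapped an antisense gene. Whether the counting used strand is not given in the sources used here, so reads of Cd3e and Ms4a1 cannot be told from those of their antisense partners.

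Promoter sequences of 6 of the 9 genes were found in the RefSeq table of GRCm38.p6, as windows from 250 bases before to 50 bases after the transcription start. Shown here are those of the CD3 chains and of Cd79a, genes that code for signaling parts of the antigen receptors. These 4 promoters were also the only ones of the 6 that held the sequence marked in capitals below. Capitals mark CACCTG or its complement CAGGTG, an E-box sequence of the kind that E proteins bind in lymphocytes. The windows, 5′ to 3′ along the gene, are chr9:45009562-45009861 for Cd3e, chr9:44981536-44981835 for Cd3d, chr9:44980382-44980681 for Cd3g and chr7:24897247-24897546 for Cd79a.
Cd3e: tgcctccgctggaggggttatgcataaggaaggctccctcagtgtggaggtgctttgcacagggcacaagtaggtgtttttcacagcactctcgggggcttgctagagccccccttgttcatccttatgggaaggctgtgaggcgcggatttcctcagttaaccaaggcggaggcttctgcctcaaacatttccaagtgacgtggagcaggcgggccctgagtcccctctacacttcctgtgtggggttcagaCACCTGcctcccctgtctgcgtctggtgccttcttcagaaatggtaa
Cd3d: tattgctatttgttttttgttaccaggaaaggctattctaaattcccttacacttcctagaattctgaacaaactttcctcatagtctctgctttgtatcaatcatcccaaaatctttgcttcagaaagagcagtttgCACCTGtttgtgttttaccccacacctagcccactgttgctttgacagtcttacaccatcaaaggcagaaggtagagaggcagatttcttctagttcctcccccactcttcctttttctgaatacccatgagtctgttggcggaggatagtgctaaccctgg
Cd3g: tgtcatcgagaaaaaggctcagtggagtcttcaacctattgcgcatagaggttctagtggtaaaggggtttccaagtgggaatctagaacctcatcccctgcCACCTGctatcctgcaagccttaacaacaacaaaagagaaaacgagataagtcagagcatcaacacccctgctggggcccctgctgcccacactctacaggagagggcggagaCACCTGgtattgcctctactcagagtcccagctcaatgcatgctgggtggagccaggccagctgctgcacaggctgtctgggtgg
Cd79a: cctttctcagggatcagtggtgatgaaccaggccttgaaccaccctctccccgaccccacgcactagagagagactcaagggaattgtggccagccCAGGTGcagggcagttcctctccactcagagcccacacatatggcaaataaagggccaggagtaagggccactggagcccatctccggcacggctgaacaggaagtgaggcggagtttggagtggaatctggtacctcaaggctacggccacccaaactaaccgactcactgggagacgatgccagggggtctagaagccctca

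The E-box was present in the promoters of these 4 genes, with 2 matches in Cd3g, and absent from those of Cd8a and Nkg7. Of all 32851 promoters in the table, 20.2% held it on either strand. The sequence CAGGAAGT, a match to ETS factors, was found on either strand in the promoters of Cd3e and Cd79a and in 3.33% of all promoters. The octamer ATGCAAAT, known from immunoglobulin promoters, was in none of the 6 and in 1.74% of all. The motifs were picked after the sequences had been read, and a match describes letters only.

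All 9 genes had their highest level in TPMCa replicate 2. This library held 75.7% of the 3368 counts of the 9 genes summed over all libraries, against the 12.4% that its share of the sequencing depth would give. The share of each gene's counts in this library was lowest for Cd4, at 27.0%, and highest for Ms4a1, at 90.4%. Cd3e, Cd3g, Cd8a, Nkg7, Cd79a, Cd79b and Ms4a1, 7 of the 9 genes, were over 4-fold above every other library there. Among the 15875 genes that passed the filter on low counts, TPMCa replicate 2 was the highest library for 10.9% and over 4-fold above every other library for 0.712%. Cd8a did not pass that filter, since only TPMCa replicate 2 had more than 6 of its counts, so 8 of the 9 genes were tested. Of these 8, Cd3e, Cd3d, Cd3g, Nkg7 and Ms4a1 passed only through TPMCa. In the other models, only TPK replicate 1 had more than 6 counts of each. For these genes a high level in TPMCa was in part fixed by the filter, also where shares of all tested genes stand beside them.

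**Figure D1:**
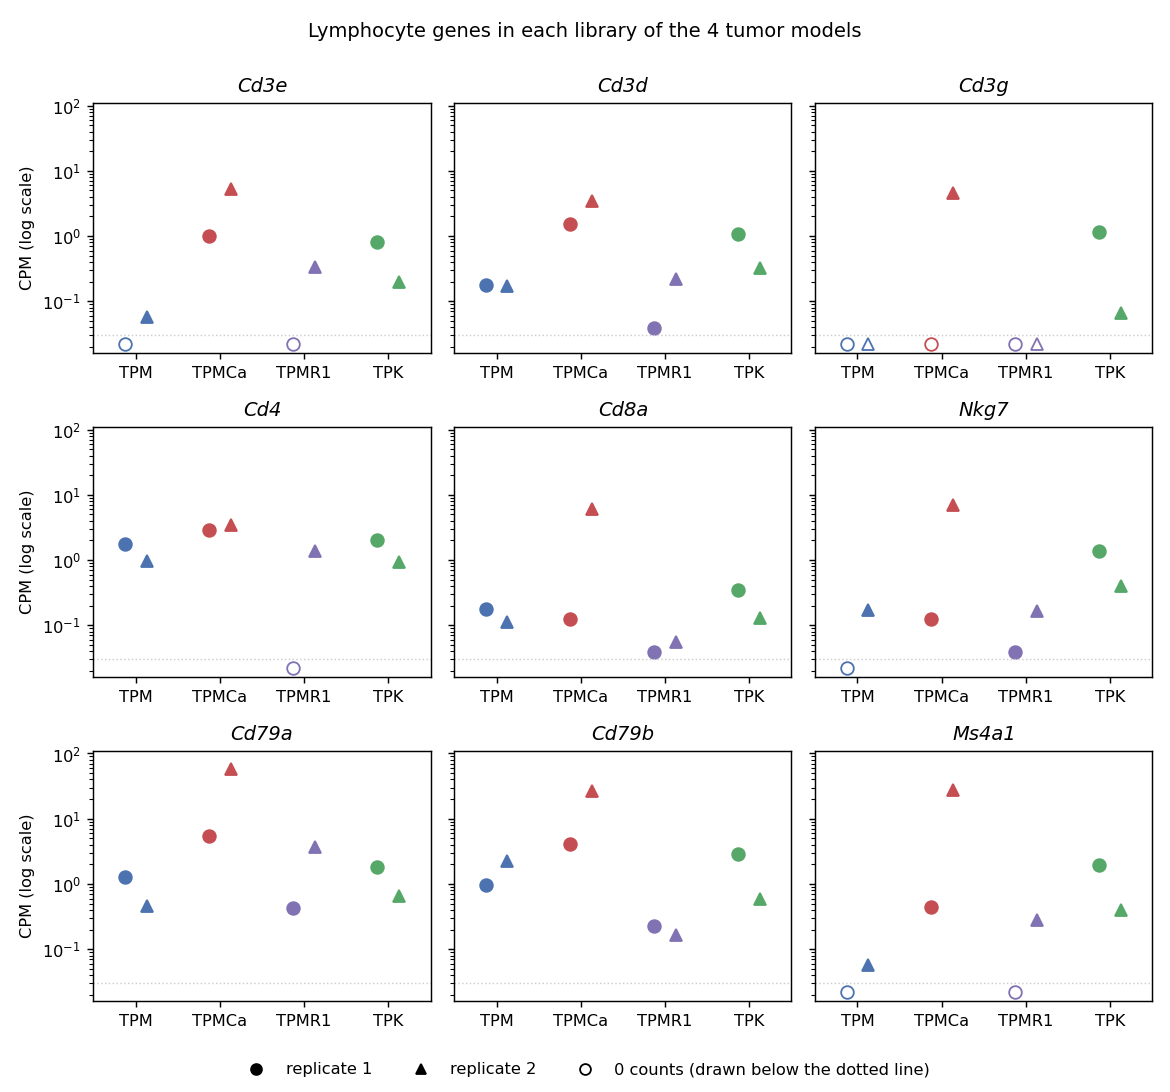
Level of each of the 9 genes in each library, as CPM on a log axis. Circles are replicate 1 and triangles replicate 2 of a model, and open symbols below the dotted line are libraries with 0 counts. The highest point of every panel is TPMCa replicate 2, from 3.39 CPM for Cd3d and Cd4 to 57.2 CPM for Cd79a.

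The CD3 chains were low outside TPMCa. Cd3e, whose product carries the signal of the T cell receptor, stood at 5.23 CPM in TPMCa replicate 2 (94 counts) and at 1.01 CPM in replicate 1. It had 0.80 and 0.198 CPM in TPK, 0 and 0.333 CPM in TPMR1, and 0 and 0.0572 CPM in TPM. Both TPMCa libraries were thus above the other 6, while the TPM libraries held 1 count between them. Cd3d, a further chain of the complex, stood at 1.52 and 3.39 CPM in TPMCa, 1.09 and 0.329 CPM in TPK, 0.181 and 0.171 CPM in TPM, and 0.0386 and 0.222 CPM in TPMR1. The order of libraries was that of Cd3e at the top, and the ratio between the TPMCa libraries was smaller, at 2.23 (95% counting interval, 1.37 to 3.74). Cd3g, the third chain, was read in 3 libraries only, with 83 counts in TPMCa replicate 2, 20 in TPK replicate 1 and 1 in TPK replicate 2. TPMCa replicate 1 had 0 counts of Cd3g beside 16 of Cd3e and 24 of Cd3d, so that Cd3g was at least 24.3-fold higher in replicate 2 than in replicate 1, against a floor of 3 counts. The 3 chains of 1 complex were therefore not read in the same proportion in every library.

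The coreceptors differed from each other. Cd4, which some dendritic cells of the mouse also express, was the most even of the 9 genes, at 2.85 and 3.39 CPM in TPMCa, 2.0 and 0.922 CPM in TPK, and 1.74 and 0.972 CPM in TPM. In TPMR1 it had 0 and 1.39 CPM. The TPMCa libraries differed for Cd4 by a ratio of 1.19, with a counting interval of 0.797 to 1.79 that includes equal levels. Cd8a had 110 counts (6.12 CPM) in TPMCa replicate 2 and between 1 and 6 counts in each of the other 7 libraries. Its ratio between replicates 2 and 1 of TPMCa was 48.3 (13.1 to 404), with 2 counts in replicate 1. In TPMCa replicate 2 the level per kilobase of exons was 1.68 CPM per kb for Cd8a and 0.841 for Cd4, whereas Cd4 was the higher on this scale in 6 of the other 7 libraries, TPMR1 replicate 1 being the exception with 0 counts of Cd4 and 1 of Cd8a.

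Nkg7, a gene of the cytotoxic granules of natural killer cells and CD8 T cells, followed Cd8a. It had 127 counts (7.06 CPM) in TPMCa replicate 2 and 2 counts (0.127 CPM) in TPMCa replicate 1, a ratio of 55.8 (15.1 to 466). The next highest level was 1.37 CPM in TPK replicate 1, with 0.395 CPM in TPK replicate 2. TPM had 0 and 0.171 CPM and TPMR1 0.0386 and 0.167 CPM. The replicates of TPMCa thus stood above and below those of TPK.

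The B cell genes gave the most counts. Cd79a stood at 57.2 CPM in TPMCa replicate 2 (1029 counts) and at 5.44 CPM in replicate 1, a ratio of 10.5 (8.43 to 13.3). In the other models it had 0.424 and 3.67 CPM in TPMR1, 1.83 and 0.659 CPM in TPK, and 1.26 and 0.457 CPM in TPM. TPMCa was above every library of the other models in both replicates, and TPMR1 replicate 2 came next. Cd79b, the partner of Cd79a, stood at 4.05 and 27.0 CPM in TPMCa, 2.91 and 0.593 CPM in TPK, 0.963 and 2.29 CPM in TPM, and 0.231 and 0.167 CPM in TPMR1. Both TPMR1 libraries were below all others. Ms4a1, the gene of CD20, had 501 counts (27.9 CPM) in TPMCa replicate 2, 7 counts (0.443 CPM) in TPMCa replicate 1 and 34 counts (1.94 CPM) in TPK replicate 1. TPK replicate 2 had 0.395 CPM, TPM 0 and 0.0572 CPM, and TPMR1 0 and 0.278 CPM. The ratio between the TPMCa replicates was 62.9 (30.3 to 157), the largest of the B cell genes.

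The products of Cd79a and Cd79b form a dimer, but their counts did not keep a fixed ratio. Cd79a counts were between 0.627 and 2.12 times those of Cd79b in 6 libraries. In TPMR1 replicate 2 the ratio was 22 (7.21 to 109), from 66 and 3 counts, and in TPM replicate 2 it was 0.200 (0.0809 to 0.433), from 8 and 40 counts. These intervals, which cover counting error only, do not meet that of TPMCa replicate 2 (1.90 to 2.37). Nor do those of TPK replicate 1 (0.390 to 0.995) and TPMCa replicate 1 (0.961 to 1.89). In TPMCa replicate 2, Cd79a was also the highest of the 9 genes per length, at 39.3 CPM per kb of exons, followed by Cd79b at 18.8, Nkg7 at 7.73 and Ms4a1 at 4.5. The CD3 chains were at 1.28 to 1.87 CPM per kb there.

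By the mean of 2 libraries, TPMCa was the first of the 4 models for all 9 genes and TPK the second for 8, the exception being Cd79a, for which TPMR1 was second. The replicates limit what this order says. TPMCa and the model after it overlapped for Cd3g, Cd8a, Nkg7 and Ms4a1, 4 of the 9 genes. Over all 27 pairs of neighboring models, 11 had replicates that did not overlap. Mean levels in TPMCa were 31.3 ± 36.6 CPM for Cd79a, 15.5 ± 16.2 CPM for Cd79b, 14.2 ± 19.4 CPM for Ms4a1 and 3.12 ± 2.98 CPM for Cd3e (SD, n = 2), so that the spread was about as large as the mean. For Cd4 it was smaller, at 3.12 ± 0.384 CPM.

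The summed level of the 9 genes differed over 3-fold between replicates in 3 of the 4 models. The 9 genes together summed to 141.9 CPM in TPMCa replicate 2 and 15.6 CPM in replicate 1, a ratio of 9.11, and all 9 were higher in replicate 2. Of the 8 tested genes, 6 differed by over 4-fold in that direction, against 6.79% of all genes tested. All of these 6 except Cd79a and Cd79b had passed the filter only through TPMCa. In TPK, all 9 were higher in replicate 1, by 3.64-fold for the sum of 13.4 against 3.69 CPM, and 4 of 8 differed by over 4-fold (5% of all genes). In TPMR1 the sum was 0.771 CPM in replicate 1 and 6.28 CPM in replicate 2, with 6 of 8 genes over 4-fold apart (13.8% of all genes). Among them, Cd3e, Cd3d, Nkg7 and Ms4a1 held 0 to 6 counts in each TPMR1 library. The counting intervals of Cd3d (0.570 to 284) and Nkg7 (0.347 to 227) include equal levels. TPM alone was even in the sum, at 4.33 and 4.29 CPM, with 3 of 8 genes, each at 3 counts or fewer, over 4-fold higher in replicate 2 (3.05% of all genes). Within that sum, Cd79a was lower in TPM replicate 2, with 8 counts beside 21 (ratio of levels, 0.362, 0.139 to 0.850), and Cd79b higher, with 40 beside 16 (2.37, 1.30 to 4.54). Leaving TPMCa replicate 2 aside, the highest library was TPMCa replicate 1 for 5 genes (Cd3e, Cd3d, Cd4, Cd79a and Cd79b) and TPK replicate 1 for 4 (Cd3g, Cd8a, Nkg7 and Ms4a1).

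To set lymphocyte transcripts against leukocyte transcripts of the same library, the counts were divided by the summed counts of the 15 pan-leukocyte genes. The B cell genes Cd79a, Cd79b and Ms4a1 gave 59.3 counts per 1000 pan-leukocyte counts in TPMCa replicate 2 and between 1.97 and 9.09 in the other 7 libraries. TPMR1 replicate 1, the library lowest in leukocyte genes, stood at 6.13 on this scale, close to TPMCa replicate 1 at 8.96. The CD3 chains gave 7.0 per 1000 in TPMCa replicate 2, 3.15 in TPK replicate 1 and 2.28 in TPMCa replicate 1. The other 5 libraries were between 0.360 and 1.23. For the summed counts of the 9 genes, TPMCa replicate 2 was 6.05-fold above the median of the other 7 libraries on this scale. Cd4 did not follow the sum, with 1.79 per 1000 in TPMCa replicate 2. It was higher in TPM (5.0 and 2.81), TPMCa replicate 1 (2.57), TPMR1 replicate 2 (3.07) and TPK replicate 1 (2.08). It was lower in TPK replicate 2 (1.10) and TPMR1 replicate 1 (0).

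**Figure D2:**
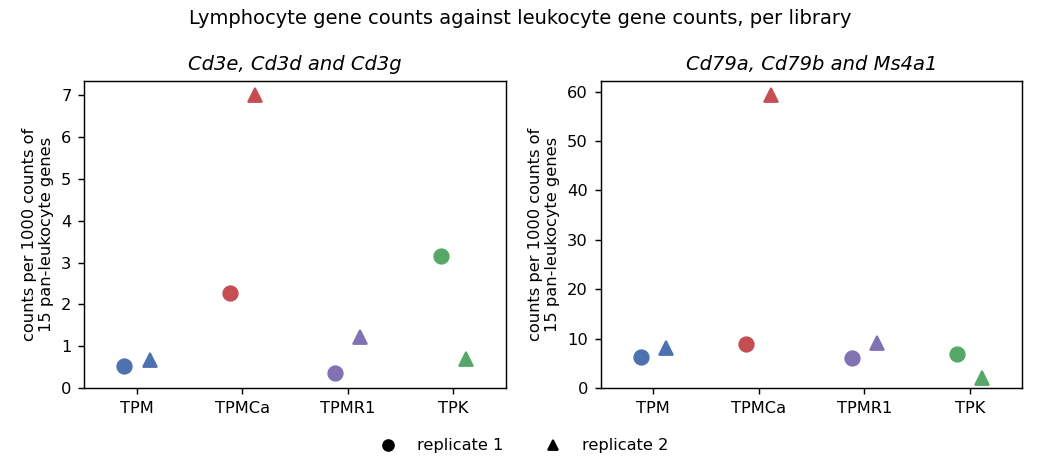
Summed counts of the CD3 chains (left) and of Cd79a, Cd79b and Ms4a1 (right) per 1000 counts of 15 pan-leukocyte genes in each library. Circles are replicate 1 and triangles replicate 2. TPMCa replicate 2 stands apart at 7.0 and 59.3, while the B cell genes of the other 7 libraries lie between 1.97 and 9.09.

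TPMCa and TPM tumors differ by the Pik3ca E545K cDNA. All 8 tested genes were higher in TPMCa in the fit, with a median log2 fold change of 5.22, against −0.01 over all genes tested. Cd3e, Cd3d, Cd3g, Nkg7 and Ms4a1 had passed the filter only through TPMCa, so their direction here was not independent of the filter. Genes of other leukocytes were higher too in this fit, with medians of 2.13 for 15 pan-leukocyte genes and 2.07 for 12 macrophage genes, of which edgeR called 0 and 0. The pan-leukocyte genes summed to 1109 and 1890 CPM in TPMCa beside 349 and 345 CPM in TPM. Their part in the result was not tested. Replicates did not overlap for 6 of the 8, Cd3d, Cd3e, Cd4, Cd79a, Cd79b and Ms4a1, while 29.1% of all genes were higher without overlap. None of the 8 passed an adjusted p of 0.05 in the quasi-likelihood test of edgeR, which called 3.48% of all genes. At an unadjusted p under 0.05, 6 of 8 passed, Cd3d, Cd3e, Cd79a, Cd79b, Ms4a1 and Nkg7, beside 22.1% of all genes. With the study's further limit of a log2 fold change beyond 1 the same 6 passed, beside 18.9%. DESeq2 called 5 of 8 at an adjusted p under 0.05, the same genes without Nkg7, beside 16% of all genes.

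The log2 fold change of Cd79a was 5.18 ± 1.57 (SE, n = 2 and 2 libraries), with an adjusted p of 0.125 in edgeR and 0.00105 in DESeq2. Cd79b followed at 3.25 ± 1.17, with adjusted p of 0.176 in edgeR and 0.0276 in DESeq2. For Ms4a1 it was 8.62 ± 2.70 (adjusted p, 0.134 in edgeR and 0.00224 in DESeq2), but TPM held 1 count of it, and the pooled counts gave a ratio of 513 with an interval of 91.7 to 20304. Cd3e, likewise with 1 count in TPM, had 6.44 ± 2.06 and Cd3d 3.75 ± 1.13 (adjusted p in edgeR, 0.139 and 0.123). Cd4 differed least, at 1.20 ± 1.51. Cd3g had 83 counts in TPMCa, all in replicate 2, and 0 in TPM, which made it at least 13.1-fold higher against 3 counts in each TPM library.

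These values leaned on TPMCa replicate 2. Without it, the log2 fold change of Cd79a was 2.66, that of Cd79b 1.32 and that of Ms4a1 3.65. Cd3e kept 4.83 and Cd3d 3.06, whereas Nkg7 dropped to 0.51. That fit rested on a lone TPMCa library, so only its fold changes are given. In TPMCa replicate 2, macrophage genes were also high, at a sum of 5623 CPM beside 2049 CPM in replicate 1, and neutrophil genes were low, at 323 beside 2721 CPM. Their part in the result was not tested.

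**Figure D3:**
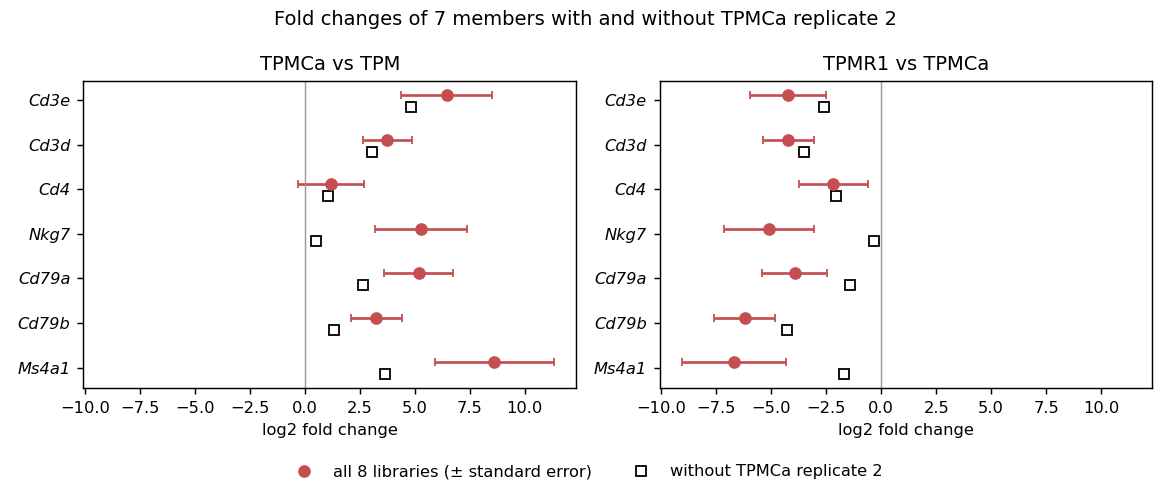
Log2 fold changes of 7 of the tested genes for TPMCa against TPM (left) and TPMR1 against TPMCa (right), from edgeR with all 8 libraries (filled, with standard errors) and without TPMCa replicate 2 (open squares). All points keep their side of 0, and Nkg7 moves from 5.27 to 0.51 on the left.

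TPMR1 against TPMCa compares tumors with an edit of Pik3r1 and tumors with the Pik3ca cDNA. All 8 genes were lower in TPMR1, with a median log2 fold change of −4.68 against 0.01 over all genes. As above, Cd3e, Cd3d, Cd3g, Nkg7 and Ms4a1 had passed the filter only through TPMCa. For 6 of 8 the replicates did not overlap, Cd4 among them and Nkg7 not, the same 6 genes as without overlap in TPMCa against TPM, beside 17.8% of all genes. edgeR called none of them, nor any other gene of the table (0%), at an adjusted p under 0.05. At an unadjusted p under 0.05 it called 6 of 8, with Nkg7 in place of Cd4 (11.8% of all genes), and the same 6 with a log2 fold change beyond 1 (10.5%). DESeq2 called Cd3d, Cd79a, Cd79b and Ms4a1, 4 of 8, beside 4.96% of all genes. Cd79b differed most relative to its error, at −6.22 ± 1.38 on the log2 scale (adjusted p, 0.364 in edgeR and 5.57e-05 in DESeq2). It was −4.29 without TPMCa replicate 2. Cd79a had −3.95 ± 1.47, Ms4a1 −6.71 ± 2.36 and Cd3d −4.23 ± 1.16, with 5 counts of Ms4a1 and 5 of Cd3d in TPMR1. Without TPMCa replicate 2 they stood at −1.42, −1.71 and −3.53. Cd3g, with 0 counts in TPMR1, was at least 16.3-fold lower there. Genes of other leukocytes were lower in TPMR1 too, with medians of −2.55 for 15 pan-leukocyte genes and −2.27 for 12 macrophage genes. The pan-leukocyte genes summed to 107 and 452 CPM in TPMR1 beside 1109 and 1890 CPM in TPMCa. Per 1000 pan-leukocyte counts, the B cell genes stood at 6.13 and 9.09 in TPMR1 and at 8.96 and 59.3 in TPMCa. The CD3 chains stood at 0.360 and 1.23 beside 2.28 and 7.0. The part of leukocyte genes in general was not tested. Both TPMCa comparisons share the TPMCa libraries.

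TPMR1 against TPM gave no common direction, with 4 of 8 fitted values above 0. edgeR called none at an adjusted p under 0.05 (5.58% of all genes) and 1 at an unadjusted p under 0.05, Cd79b (23.1% of all genes, or 20.1% with a log2 fold change beyond 1), and DESeq2 called none (18.1%). Cd79b was lower in both TPMR1 libraries than in both TPM libraries, at a log2 fold change of −2.97 ± 1.23 (adjusted p, 0.211 in edgeR). The pooled counts were 9 and 56, a ratio of 0.125 (0.0543 to 0.254). It was the single tested gene without overlap, beside 28.5% of all genes that were lower without overlap. Leukocyte genes as a whole were lower in TPMR1 replicate 1 than in TPM, at 107 beside 345 and 349 CPM, and higher in TPMR1 replicate 2, at 452 CPM.

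TPK differs from TPM in the cDNA introduced. Cd3d, Cd3e, Cd3g, Ms4a1 and Nkg7, 5 of the 8 tested genes, exceeded both TPM libraries in both TPK libraries, and 24.4% of all genes were so. No gene was called by edgeR at an adjusted p under 0.05, in the set or in the table (0%). At an unadjusted p under 0.05, edgeR called 0 of 8 (7.17% of all genes, or 5.28% with a log2 fold change beyond 1), and DESeq2 called 0 of 8 at an adjusted p (1.51%). TPM held 0 to 3 counts of Cd3e, Cd3g, Ms4a1 and Nkg7 in each library, and TPK held 17, 21, 40 and 30 over both. Fitted log2 fold changes were 5.03 ± 2.54 for Ms4a1, 3.82 ± 2.02 for Cd3e, 3.25 ± 2.01 for Nkg7 and 1.97 ± 1.10 for Cd3d (adjusted p of edgeR, 0.721 to 0.760). The ratio of pooled counts was 41.8 (7.08 to 1690) for Ms4a1, 17.7 (2.78 to 742) for Cd3e, 10.4 (3.25 to 53.5) for Nkg7 and 4.18 (1.66 to 12.5) for Cd3d. Cd3g was at least 3.43-fold higher, with 1 count in TPK replicate 2 and 0 in both TPM libraries. These intervals cover counting error, not the spread between tumors, and most of the TPK counts came from replicate 1. The pan-leukocyte genes summed to 962 and 838 CPM in TPK beside 349 and 345 CPM in TPM. Per 1000 pan-leukocyte counts, the CD3 chains stood at 3.15 and 0.708 in TPK beside 0.517 and 0.662 in TPM. The B cell genes stood at 6.95 and 1.97 in TPK beside 6.38 and 8.11 in TPM on this scale. The part of leukocyte genes in general was not tested.

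Among its comparisons, the study set TPM and TPK against TPMCa and TPMR1 together, for which the mean of both models was used here. For TPM, edgeR called 0 of 8 genes at an adjusted p under 0.05 (8.89% of all genes) and 0 at an unadjusted p under 0.05 (24.9%, or 20% with the fold limit), and DESeq2 called Cd79a (19.6%). For TPK, edgeR called 0 of 8 by either rule (14.4 and 32% of all genes, or 25.2% with the fold limit) and DESeq2 none (28.4%). These DESeq2 calls used an adjusted p under 0.05, whereas the study set its limits on DESeq2 p-values before adjustment. By the study's limits, Cd3e, Cd79a and Ms4a1 passed for TPM (unadjusted p of DESeq2, 0.0297, 0.00476 and 0.0112). For TPK, Cd79a passed (0.0165). The share of all genes that passed by this rule is not given here. In a test for any difference among the 4 models, edgeR called 0 of 8 at an adjusted p under 0.05 (7.32%) and 5 at an unadjusted p under 0.05 (27.9%), and DESeq2 called 5, Cd3d, Cd3e, Cd79a, Cd79b and Ms4a1 (30%). No fold changes are given against these means, since several changed sign when a single library or the scaling was changed.

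Other genes of the same cells, from lists with no member in them, were read in the same libraries. Of 21 B cell genes in the table, which all passed the filter on low counts except Cr2, 19 were highest in TPMCa replicate 2. There, 13 of the 21, Cr2 included, were over 4-fold above every other library. Cd22, an inhibitory receptor of B cells, stood at 64.5 CPM there beside 5.0 CPM in TPMCa replicate 1. Cr2, the complement receptor of mature B cells and follicular dendritic cells, had 30.5 CPM there and at most 0.198 CPM elsewhere. Whether lymphoid tissue was taken along with this tumor is not given in the sources used here, and was not tested. Ebf1, a transcription factor of B cells that stromal cells also express, was closer, at 20.6 and 14.7 CPM in TPMCa. In the fit, none of the 20 tested B cell genes was called in TPMCa against TPM, at a median log2 fold change of 3.32.

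Of 24 T cell genes in the table, 17 were highest in TPMCa replicate 2 and 12 over 4-fold above every other library. Among those 12, Cd8b1, Themis, Icos, Ctla4, Sh2d1a and Trat1 had not passed the filter on low counts, which the shares over all genes require. Cd28, the costimulatory receptor, had 7.28 CPM in TPMCa replicate 2 and at most 0.696 CPM elsewhere. Zap70, which binds phosphorylated CD3 chains, had 7.17 beside 1.14 CPM. Not all T cell genes followed. Foxp3, the factor of regulatory T cells, was between 0.171 and 0.329 CPM in all 8 libraries. Cd247, the zeta chain that belongs to the same complex as the CD3 chains, was higher in TPMR1 replicate 2 (2.33 CPM) than in TPMCa replicate 2 (1.28 CPM), and Cd6 was highest in TPMR1 replicate 1 (8.21 CPM). In TPMCa against TPM, the median log2 fold change over the 17 tested T cell genes was 1.98, close to the 2.13 of the pan-leukocyte genes. The single one called, Bcl11b, fell by 3.22 on the log2 scale (adjusted p, 0.0375 in edgeR).

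Of 20 genes of natural killer and cytotoxic cells, 19 were highest in TPMCa replicate 2 and 14 over 4-fold above every other library. Only 9 of the 20 passed the filter on low counts, and of the 14 only Klrk1, Gzmb, Il2rb and Ctsw did. The shares over all genes given above cover genes that passed the filter only. Il2rb, a receptor chain for interleukins 2 and 15, had 21.2 CPM in TPMCa replicate 2 and 2.79 CPM in TPMCa replicate 1. Prf1, the pore-forming perforin, had 2.95 CPM in TPMCa replicate 2 and at most 0.593 CPM elsewhere, and Gzmb, a granzyme, 4.28 and at most 0.791 CPM. Gzma, another granzyme, was the exception, highest in TPK at 17.7 and 5.34 CPM, with 0.317 and 1.78 CPM in TPMCa and 0.154 and 0.111 CPM in TPMR1. It was also the single cytotoxic gene called in any comparison, higher in TPK than in the mean of TPMCa and TPMR1 by 4.89 ± 0.94 on the log2 scale (adjusted p, 0.0195 in edgeR). Of the 9 cytotoxic genes tested, 0 were called in TPMCa against TPM.

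**Figure D4:**
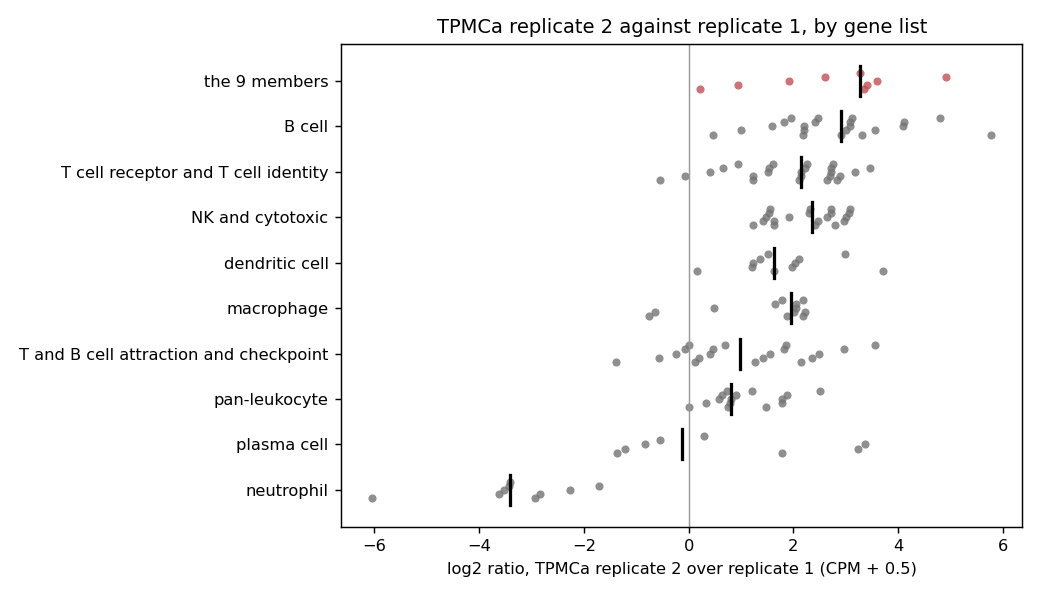
Log2 ratio of CPM in TPMCa replicate 2 over replicate 1 for the genes of each list, after adding 0.5 CPM. Dots are genes and black bars are medians, which are 3.28 for the 9 members, 2.92 for B cell genes, 2.36 for cytotoxic genes, 2.14 for T cell genes and −3.41 for neutrophil genes.

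Between the TPMCa replicates, lists of other leukocytes went in different directions. Median log2 ratios of replicate 2 over replicate 1 were 1.95 for 12 macrophage genes, 1.63 for 11 dendritic cell genes and 0.81 for the 15 pan-leukocyte genes. Genes of plasma cells, the antibody-secreting cells that B cells give rise to, had a median of −0.13 over 8 genes, and 9 neutrophil genes one of −3.41, all of them lower in replicate 2. Over all genes tested the median was 0.02. TPMCa replicate 2 was the highest library for 15 of 15 pan-leukocyte and 10 of 12 macrophage genes as well. Of these, 0 of 15 and 0 of 12 were over 4-fold above every other library in TPMCa replicate 2, beside 2 of 11 dendritic cell genes and 0 of 9 neutrophil genes. H2-DMb2, an MHC class II gene of antigen-presenting cells that include B cells, was one of those 2, at 44.0 CPM.

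Among genes of these lists called in comparisons of the models, several are known from squamous or uterine epithelium as well as from leukocytes. Bcl11b, Ly6d of the B cell list, Sdc1 of the plasma cell list and Ltf of the neutrophil list were all higher in TPM and in TPK than in the mean of TPMCa and TPMR1, by 2.97 to 9.90 on the log2 scale. All 6 epithelial genes were called in the same direction in these comparisons. Ly6d, for example, had 389 to 1091 CPM in TPM and TPK and at most 2.50 CPM in the other 4 libraries. None of the 8 tested members was called with them. The chemokine Cxcl10 and the macrophage receptor Mertk were also called in TPK against that mean, at 2.01 ± 0.42 and −1.93 ± 0.47 (log2 fold change ± SE). No pan-leukocyte, dendritic cell, fibroblast or endothelial gene was called in any of the 6 comparisons.

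Genes other than the 9 were ranked by how closely their log2 CPM followed the mean of the CD3 chains or of the B cell genes over the 8 libraries. Nearest to the CD3 chains were Cd163, Wdfy4, Cd209b, Sh2d2a and Hoxc6, with Pearson's r of 0.967 to 0.988, and 0.906 to 0.973 over the 7 libraries without TPMCa replicate 2. Cd163, a scavenger receptor of macrophages, stood at 70.8 CPM in TPMCa replicate 2 and at 20.8 CPM in the next library. Sh2d2a codes for an adapter protein of T cells. Nearest to the B cell genes were Irf4, Sh2d2a, Wdfy4, H2-Ob and Cd2, with r of 0.974 to 0.988, and 0.890 to 0.971 without TPMCa replicate 2. Irf4, a transcription factor of activated B and T cells, had 51.2 CPM there and 4.49 CPM in the next library. These correlations describe 8 libraries that share their depth scaling, and 83 and 88 of 14875 candidate genes exceeded an r of 0.9.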

How the data were processed

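RNA was sequenced as bulk libraries from 2 samples of each of 4 models. Groups and replicate numbers were taken from the sample labels, and the column headings call TPM by a slightly longer name. Read counts per gene symbol were made and deposited by the authors, after trimming by the sequencing company and alignment to mm10 with STAR. The counter and its annotation are not given in the sources used here. The authors also deposited signal values, which are these counts over a size factor of DESeq2, and they were used only to check that scaling. Counts were used for every result.

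The counts were analyzed in R 4.3.3 with edgeR 4.0.16. After filterByExpr, 15875 genes were fitted by the quasi-likelihood method with TMM factors and a term for the model over all 8 libraries, and p-values were adjusted by Benjamini-Hochberg over all genes tested. DESeq2 1.42.0 was an alternative. The study names DESeq2, with a limit of 1 on the log2 fold change and of 0.05 on the p-value before adjustment. Intervals of count ratios were exact Poisson intervals at 95%, and folds against a model at 0 were set against 3 counts in each library. Exon lengths and coordinates came from GENCODE M21 (GRCm38). Named genes were the 9 members, the called genes of 11 marker lists (at most 4 per list and comparison, or else the 2 with the highest mean log2 CPM, which were Laptm5 and Coro1a, Itgax and H2-DMb2, and Col1a1 and Col3a1) and the 5 genes most like each set of chains. Other list genes given with their values were picked after these were seen, as examples. The lists cover T cells, natural killer and cytotoxic cells, B cells, plasma cells, T and B cell attraction and checkpoint genes, leukocytes in general, macrophages, dendritic cells, neutrophils, epithelium, and fibroblasts with endothelium. Members and lists were chosen with earlier results of these data known. Immunoglobulin and T cell receptor constant genes were not analysed here, and some of the engineered genes are not named.

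The study gives 2 mice for each model, and the 2 libraries of a model were treated as separate mice, which the labels themselves do not state. Replicates differed by more than sampling noise in all 4 models. On counts simulated for TPMCa against TPM over 15743 genes with 200 changed, edgeR found 10.4% of genes with a true 4-fold change, 53.7% at 16-fold and 78.8% at 64-fold, and called 6 unchanged genes. Of all changed genes, edgeR recovered 47.5% and DESeq2 69%, and DESeq2 called 92 unchanged genes. DESeq2 thus called more unchanged genes than edgeR, which bears on its calls of members too. The changed genes were not matched to the low counts of the members.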

Additional observations from a re-analysis of the deposited data

How the results depend on the processing

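No member was called by edgeR in any comparison when the DESeq2 size factors, library size alone, no filter, a minimum of 10 counts in total or only the models compared were used. DESeq2 instead called 5 members in TPMCa against TPM, 4 in TPMR1 against TPMCa, 1 in TPM against the mean of the models with altered Pik3ca or Pik3r1, and 5 for any difference. The study put its limits (log2 fold change beyond 1, p under 0.05 without adjustment) on DESeq2 results. With these limits on edgeR, 6, 6 and 1 members passed in TPMCa against TPM, TPMR1 against TPMCa and TPMR1 against TPM. For any difference, without the fold limit, edgeR gave 5. With the limits on DESeq2, 7, 7 and 1 members passed in the same comparisons, and 1 in TPK against TPM. In the study's own comparisons with the joint mean, DESeq2 then gave 3 for TPM and 1 for TPK. Leaving out each library in turn gave 0 to 1 called members in TPMR1 against TPM (Cd4), TPMR1 against TPMCa (Cd4) and any difference (Cd79a). The 1 arose each time without TPMR1 replicate 2, where TPMR1 rested on replicate 1, a lone library assumed to vary like the other models. Of all 47 member fold changes fitted, 18 changed sign under at least 1 alternative, in TPMR1 against TPM, TPK against TPM and the comparisons with the means. Fold changes that changed sign were left out of the text. That 0 of the 19 reported did so follows from this choice and is no measure of stability. Counts per 1000 pan-leukocyte counts, set against Ptprc alone, put TPMCa replicate 2 at 7.59-fold above the median of the others for the CD3 chains instead of 9.89-fold. The cause of these shifts was not tested. With a term for the replicate block, 0 members were called in every comparison. Same-numbered libraries did not deviate together, with correlations of −0.07 to −0.01, so the numbers were not taken to pair the libraries. Depth limits Cd3e, Cd3g, Nkg7 and Ms4a1 in TPM and TPMR1, where libraries held 0 to 6 counts.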

Other observations

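Of 8 plasma cell genes in the table, 4 were over 4-fold higher in TPMCa replicate 2 than in replicate 1 (Jchain, Mzb1, Irf4 and Tnfrsf17, the last with 2 counts and 0), and 1 was highest there of all libraries. Jchain, which joins secreted immunoglobulin, stood at 81.9 CPM in TPK replicate 1 and at 0.329 CPM in TPK replicate 2, and was at most 4.78 CPM in the other libraries. Mzb1, a chaperone of antibody-secreting cells, was highest in TPK replicate 1 too, at 5.48 CPM beside 4.06 CPM in TPMCa replicate 2. The gene highest in TPMCa replicate 2 was Irf4, which was over 4-fold above every other library.

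Of 20 genes for the attraction and checkpoint control of T and B cells, 9 were highest in TPMCa replicate 2, and 3 were over 4-fold above every other library there. These were Ccr7, the receptor that guides lymphocytes and dendritic cells to lymphoid tissue, at 55.4 CPM beside 9.43 CPM in TPMCa replicate 1, and Ccl22 and Cxcr3, at 9.90 and 4.39 CPM. Cxcl13, which attracts B cells, was at 17.5 CPM in TPMCa replicate 2, 19.8 CPM in TPM replicate 1 and 15.4 CPM in TPK replicate 1. Cd79a, Cd79b and Ms4a1 summed to 112, 2.23 and 6.68 CPM in these libraries, and to 9.94 CPM in TPMCa replicate 1. Cd274, the gene of the checkpoint ligand PD-L1, was between 34.3 and 48.9 CPM in 7 libraries and at 10.5 CPM in TPMR1 replicate 1. Tnfrsf9, a costimulatory receptor, was highest in TPMR1 replicate 2, at 96.0 CPM. Ccl21a had 0 counts in all 8 libraries.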
